A study of Mus musculus with 7 samples.

Results

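The 10 genes described here carry the growth hormone signal to IGF1 in the liver and carry IGF1 onwards in the blood. They were taken by gene symbol from the table of read counts of primary mouse hepatocytes, where all 10 were found among the 14779 genes that were tested. They are the growth hormone receptor *Ghr*, the transcription factor genes *Stat5a* and *Stat5b*, the feedback inhibitor *Socs2*, the ligand *Igf1*, the acid-labile subunit *Igfals* and the binding protein genes *Igfbp1*, *Igfbp2*, *Igfbp3* and *Igfbp4*.

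Growth hormone from the pituitary binds its receptor on hepatocytes, where the receptor-bound kinase JAK2 phosphorylates STAT5 proteins, which enter the nucleus and switch on *Igf1*, *Igfals* and *Socs2*. The liver releases most of the circulating IGF1, and in the blood most of it travels in a complex with IGFBP3 and the acid-labile subunit, which keeps it in the circulation. IGFBP1 is a short-lived binding protein of the hepatocyte that insulin represses through FOXO1, while *Igfbp2* and *Igfbp4* encode further carriers that bind IGFs away from their receptor.

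Hepatocytes from WT mice (n = 4 libraries) and from WDR6-WKO mice (n = 3 libraries) were compared, to ask what the loss of WDR6, a WD-repeat protein, does to hepatocyte transcripts. WDR6-WKO mice lack exon 2 of *Wdr6* in every cell of the body after CRISPR-Cas9 editing, so the cells had developed without the protein. The donors were male, and their ages are not given in the sources used here. The cells were obtained by two-step perfusion of the liver with collagenase and kept overnight in culture, and the labels name no treatment, so that growth hormone was not among the variables.

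The libraries held 17816913 to 23668940 counted reads. The targeted gene gave 769 to 972 reads in the WT libraries and 40 to 62 in the WDR6-WKO libraries, which matched the labels in all 7. WDR6-WKO replicate 3 stood apart from the other libraries of its genotype, with a chi-square per gene of 14.3 and 15.9 against replicates 1 and 2, compared with 5.14 between those, and calls of named genes that depended on it are given with and without it. The cells expressed hepatocyte genes, with *Alb*, encoding albumin, at 7366 ± 730 CPM, the TMM-scaled counts relative to a fixed library total, in WT and 6480 ± 363 CPM in WDR6-WKO (mean ± s.d.). All 10 hepatocyte markers were detected, and so were markers of Kupffer, endothelial and stellate cells. Levels of the hepatocyte markers differed widely, with WT means of 39.4 CPM for *Cps1* and 13.8 CPM for *Asgr1*. *Tat* was lower still. Genes listed for dedifferentiation in culture were abundant. Among them the keratin genes *Krt8* and *Krt18*, which are not particular to dedifferentiated cells, stood at WT means of 5938 and 4272 CPM. The 15 genes of that list summed to 22167 to 22868 CPM in WT, and the 10 hepatocyte markers to 13447 to 16041 CPM. How far the cultures had dedifferentiated was not tested.

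Of the 10 genes, 6 were lower and 1 was higher in WDR6-WKO hepatocytes, and 3 did not pass the test (edgeR quasi-likelihood test, adjusted p under 0.05 over all genes). In the same comparison 12.8% of all genes tested passed, 6.65% as higher and 6.18% as lower. The levels of the 2 genotypes did not overlap for the same 7 genes, against 23.5% of all genes tested. The median log2 fold change of the 10 genes was −0.23, and that of all genes tested was 0.01. The median size of change, regardless of sign, was 0.24 among the 10 genes and 0.13 among all genes. In RNA from whole cultures, fewer cells of a type and less RNA per cell cannot be told apart.

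**Figure D1:**
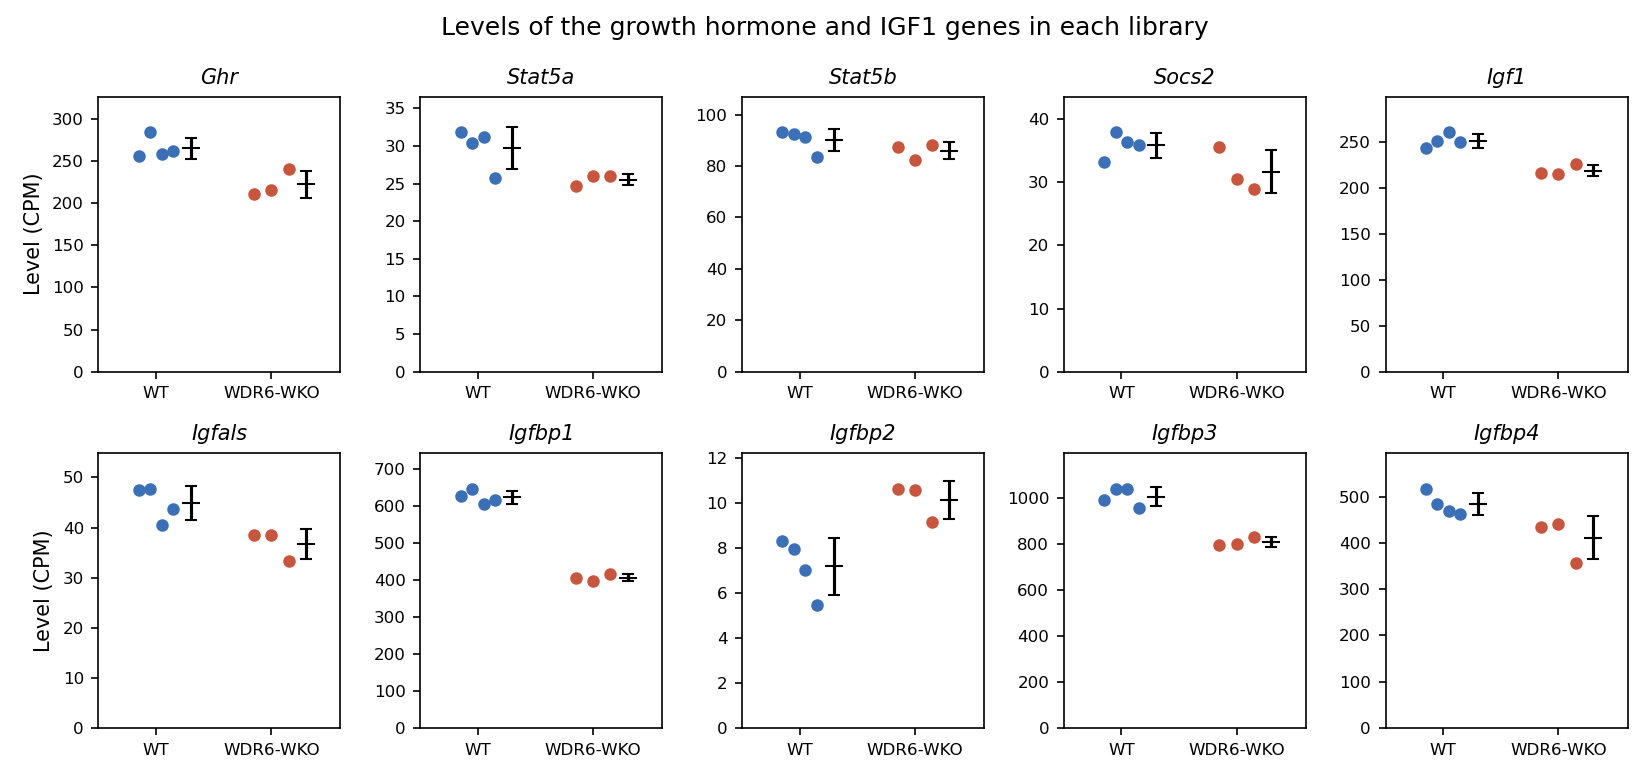
Level of each of the 10 genes in CPM (vertical axes, each starting at 0) in every library of WT (n = 4) and WDR6-WKO (n = 3) hepatocytes. Points are libraries, and horizontal marks with capped bars are group means ± s.d. The 3 WDR6-WKO libraries lie below all WT libraries for *Ghr*, *Igf1*, *Igfals*, *Igfbp1*, *Igfbp3* and *Igfbp4*, and above all of them for *Igfbp2*.

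Expression of several hepatocyte genes was also lower in the same libraries. Of the 10 hepatocyte markers, 5 were lower, none was higher, and the median log2 fold change was −0.30. *Cps1*, the first enzyme of the urea cycle, fell by 0.69 on the log2 scale, and *Apoa1*, the main protein of high-density lipoprotein, also fell by 0.69. *Asgr1*, a receptor of the hepatocyte surface, was lower by the test over all libraries (edgeR adjusted p = 0.0487) but did not pass without WDR6-WKO replicate 3 (edgeR adjusted p = 0.0633). *Alb* differed by −0.18 (edgeR adjusted p = 0.101) and *Ttr*, which carries thyroid hormone, by −0.05 (edgeR adjusted p = 0.560). *Serpina1c* was the only marker with a positive log2 fold change, 0.24 (edgeR adjusted p = 0.0740). The median of the 10 markers, relative to the WT mean on the log2 scale, lay between −0.05 and 0.09 in the WT libraries and between −0.34 and −0.23 in the WDR6-WKO libraries.

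Each library was also scaled to that median, an alternative chosen after seeing the data. This scaling raises the log2 difference of every gene by about the same amount, so that small negative differences turn positive by construction. Under it *Ghr*, *Igf1*, *Igfals* and *Igfbp4* stood at 0.04, 0.09, 0.0022 and 0.05, *Igfbp3* at −0.02, *Igfbp1* at −0.33 and *Igfbp2* at 0.80. The levels that follow are relative to all transcripts, and the part of the hepatocyte markers' difference in those of the 10 genes was not tested.

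Among the signalling genes, *Ghr*, which encodes the receptor, was measured at 256, 284, 258 and 262 CPM in the WT libraries and at 211, 216 and 241 CPM in the WDR6-WKO libraries. All WDR6-WKO libraries were below all WT libraries, and replicate 3 was the nearest to them. This gave a log2 fold change of −0.25 ± 0.06 (s.e.; edgeR adjusted p = 0.00771), a fall of 16.1% on the linear scale. Without WDR6-WKO replicate 3 it was −0.32 (edgeR adjusted p = 1.93e-06), and without WDR6-WKO replicate 1 the difference no longer passed (edgeR adjusted p = 0.0516). The exact permutation test over the 35 ways of drawing the groups gave p = 0.0286 for *Ghr*, the smallest value that 4 against 3 libraries allow. The gene lies on chromosome 15 from 3317760 to 3583492 on the minus strand (GRCm38).

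*Stat5a* stood at 31.8, 30.4, 31.2 and 25.7 CPM in WT and at 24.6, 26.0 and 26.0 CPM in WDR6-WKO. WT replicate 4 was low and lay within the WDR6-WKO range, and the other WT libraries were higher. Its log2 fold change of −0.22 ± 0.08 did not pass the test (edgeR adjusted p = 0.0890) but did so without WT replicate 4 (edgeR adjusted p = 0.0334) or without WDR6-WKO replicate 3 (edgeR adjusted p = 0.0272). *Stat5b*, the main STAT5 gene of the liver, was measured at 93.1, 92.3, 91.4 and 83.7 CPM in WT and 87.6, 82.4 and 88.1 CPM in WDR6-WKO. The ranges overlapped, again with WT replicate 4 lowest in its group. Its log2 fold change was −0.07 ± 0.06 (edgeR adjusted p = 0.472).

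The STAT5 genes are neighbours on chromosome 11 in the mouse genome (GRCm38), with *Stat5b* on the minus strand from 100780731 to 100850724 and *Stat5a* on the plus strand from 100859351 to 100885169, 8626 bases apart. Of the 50-base stretches in their transcripts, 15.8% of those of *Stat5a* and 11.8% of those of *Stat5b* also occur in another gene, mostly the partner. How reads from such stretches were assigned is not given in the sources used here, so the split of the counts between the STAT5 genes is uncertain to that extent.

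*Socs2*, which encodes an inhibitor of growth hormone signalling that STAT5 itself induces, was at 33.2, 37.9, 36.4 and 35.9 CPM in WT and at 35.6, 30.6 and 29.0 CPM in WDR6-WKO. Replicates 2 and 3 of WDR6-WKO were below all WT libraries, and replicate 1 was within the WT range. Its log2 fold change of −0.17 ± 0.08 did not pass the test (edgeR adjusted p = 0.163), and it ranged from −0.27 to −0.12 when each library was left out in turn. Of the 50-base stretches of *Socs2*, 18.4% also occur in another gene, most in *Gm9847*, and the gene lies on chromosome 10 from 95385362 to 95417180 on the minus strand. *Cish*, another inhibitor induced by STAT5, differed by 0.07 (edgeR adjusted p = 0.604), with means of 35.5 ± 2.92 CPM in WT and 37.2 ± 2.55 CPM in WDR6-WKO.

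*Igf1*, the growth factor itself, was measured at 243, 251, 260 and 250 CPM in WT and at 216, 215 and 226 CPM in WDR6-WKO. The libraries of each genotype were close together and the genotypes did not overlap. The log2 fold change was −0.20 ± 0.05 (edgeR adjusted p = 0.0100), a decrease of 12.9% on the linear scale, and the gene passed the test with any single library left out. *Igf1* lies on chromosome 10 from 87858265 to 87937042 on the plus strand. The antisense gene *Igf1os* held 5 to 19 reads per library, compared with 4038 to 5195 for *Igf1*.

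*Igfals* encodes the subunit that closes the circulating complex of IGF1 and IGFBP3. It was at 47.4, 47.8, 40.6 and 43.7 CPM in WT and at 38.4, 38.4 and 33.2 CPM in WDR6-WKO. The nearest libraries of the 2 genotypes, WT replicate 3 and WDR6-WKO replicates 1 and 2, were 40.6 and 38.4 CPM. The log2 fold change was −0.29 ± 0.08 (edgeR adjusted p = 0.0212), and it was −0.23 without WDR6-WKO replicate 3 (edgeR adjusted p = 0.0107). It did not pass without WT replicate 1 (edgeR adjusted p = 0.0666) or without WT replicate 2 (edgeR adjusted p = 0.0779). The gene lies on chromosome 17 from 24865997 to 24882010 on the plus strand.

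Promoter windows of RefSeq (GRCm38.p6), which reach from 250 bases before to 50 bases after an annotated start, were searched on both strands for letters bound by the factors named above. Windows were held for 9 of the 10 genes, all but *Socs2*, with 15 windows in all among 32851 windows of all genes. The STAT5 letters TTCNNNGAA were found in 2 of the 15 windows, both of *Igfals*, and in 8.30% of all windows. The forkhead letters GTAAACA were found in 1 window, of *Igfals*, and in 3.65% of all windows. These are the only windows of the 10 genes with either match, so the parts of them before the first annotated exon are shown on the plus strand, with the matches in capitals, as chr17:24877594-24877655 and chr17:24877981-24878214.
Igfals, first window: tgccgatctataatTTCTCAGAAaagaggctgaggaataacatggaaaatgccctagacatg
Igfals, second window: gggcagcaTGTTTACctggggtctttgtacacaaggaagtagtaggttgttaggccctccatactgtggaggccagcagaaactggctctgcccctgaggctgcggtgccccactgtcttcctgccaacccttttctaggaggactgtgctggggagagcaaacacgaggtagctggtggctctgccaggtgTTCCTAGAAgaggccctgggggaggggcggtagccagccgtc

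The STAT5 letters lay 236 and 58 bases before the annotated starts of these windows, and the forkhead letters lay 242 bases before the second start, on the opposite strand, where they read as TGTTTAC in the line above. A match describes the sequence and does not show that a factor was bound.

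*Igfbp3* was the most abundant of the 10 transcripts in CPM. Its product binds IGF1 in the blood, and in the liver its transcripts are known mainly from non-parenchymal cells. It was measured at 988, 1036, 1039 and 955 CPM in WT and at 792, 799 and 831 CPM in WDR6-WKO. The gap between the genotypes was wider than the range within WT. The log2 fold change was −0.32 ± 0.05 (edgeR adjusted p = 0.000321), a fall of 19.6%, and it stayed between −0.34 and −0.30 when any library was left out.

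*Igfbp1* was measured at 628, 648, 606 and 618 CPM in WT and at 406, 397 and 417 CPM in WDR6-WKO. It showed the largest difference of the 10 genes, and the lowest WT library exceeded the highest WDR6-WKO library by far more than the spread in either genotype. Its log2 fold change was −0.62 ± 0.04 (edgeR adjusted p = 3.14e-07), with a range from −0.64 to −0.60 over the libraries left out in turn. In size of change *Igfbp1* ranked above 94.5% of all genes tested. *Igfbp1* and *Igfbp3* lie 3539 bases apart on chromosome 11, from 7197782 to 7202546 on the plus strand and from 7206086 to 7213923 on the minus strand, so that they are transcribed towards each other.

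A forkhead sequence of the kind through which FOXO1 acts, CAAAACA, was found 108 bases before the start of *Igfbp1*. It was the only match to these letters in the 15 windows, while 6.28% of all windows held one. The window is printed up to the first base of the transcript, chr11:7197537-7197781 on the plus strand, with the match in capitals, because *Igfbp1* had the largest difference. The letters TGATGNAA, which ATF4 binds, occurred in none of the 15 windows, which do not include *Socs2*, and in 3.97% of all windows.
Igfbp1: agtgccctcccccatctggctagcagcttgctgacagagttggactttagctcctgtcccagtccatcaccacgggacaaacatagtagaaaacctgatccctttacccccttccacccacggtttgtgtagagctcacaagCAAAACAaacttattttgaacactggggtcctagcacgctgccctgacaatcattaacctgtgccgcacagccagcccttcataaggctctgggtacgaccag

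*Igfbp4*, whose product inhibits IGF action in tissues, was at 517, 483, 469 and 463 CPM in WT and at 434, 441 and 357 CPM in WDR6-WKO. WDR6-WKO replicate 3 was much lower than the other libraries of its genotype, which lay just below the WT range. The log2 fold change was −0.23 ± 0.07 (edgeR adjusted p = 0.0345), and without replicate 3 it was −0.15 (edgeR adjusted p = 0.00932). *Igfbp4* did not pass when any 1 of the 4 WT libraries was left out (edgeR adjusted p from 0.0573 to 0.0952). *Igfbp4* lies on chromosome 11 from 99041244 to 99054392.

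*Igfbp2* went the other way. This carrier, abundant in fetal and fasting liver, was low in these cells, at 8.32, 7.96, 7.02 and 5.47 CPM in WT, and it was at 10.6, 10.6 and 9.16 CPM in WDR6-WKO. All WDR6-WKO libraries were above all WT libraries, and WT replicate 4 was the lowest of the 7. On the log2 scale the change was 0.50 ± 0.14 (edgeR adjusted p = 0.0268), an increase of 41.2%, resting on 109 to 256 reads per library. It was 0.56 without WDR6-WKO replicate 3 (edgeR adjusted p = 0.00277). The difference kept its sign but did not pass without WT replicate 3 (edgeR adjusted p = 0.0703), WT replicate 4 (0.0756), WDR6-WKO replicate 1 (0.110) or WDR6-WKO replicate 2 (0.102). *Igfbp2* lies on chromosome 1 from 72824503 to 72852474 on the plus strand.

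**Figure D2:**
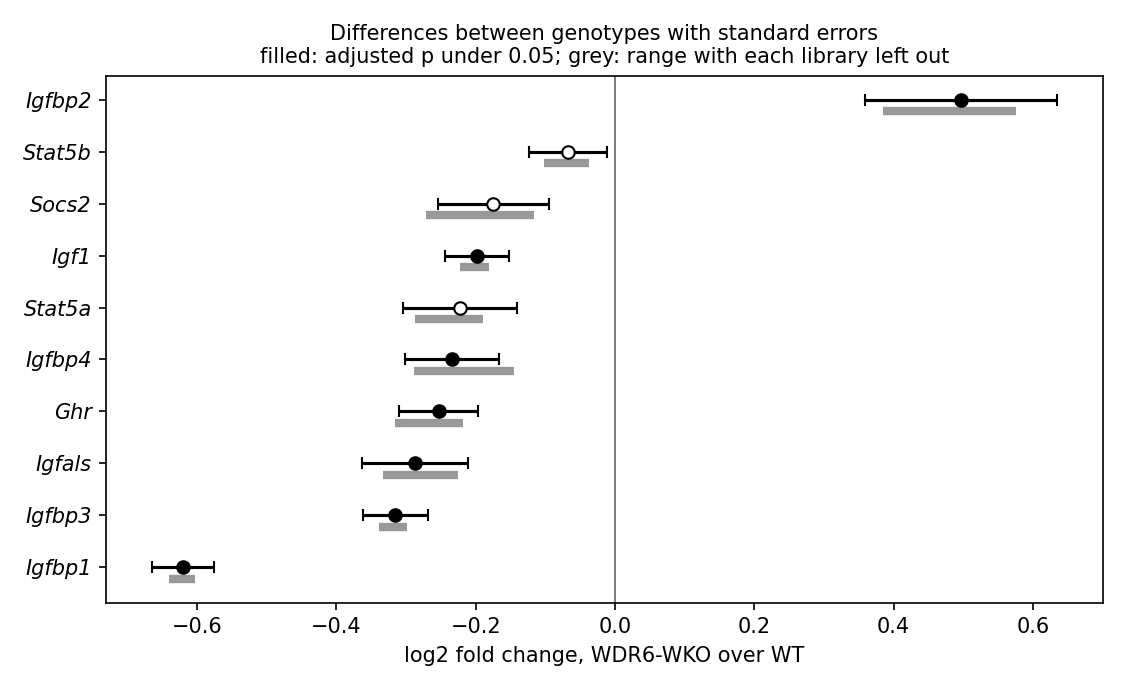
log2 fold change of each of the 10 genes in WDR6-WKO over WT hepatocytes (horizontal axis) with its standard error; filled points passed an edgeR adjusted p of 0.05, and grey bars give the range when each library was left out in turn. *Igfbp1* stands at −0.62, *Igfbp2* at 0.50, and the other genes lie between −0.32 and −0.07.

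Of the genes that passed, *Igfbp1* and *Igfbp2* were the only ones to exceed the absolute log2 fold change of 0.35 that the study set for its lists, which 10.4% of all genes did together with an unadjusted p under 0.05. Seen by library, 9 of the 10 genes were below the WT mean in each of the 3 WDR6-WKO libraries, and the median deviation of the 10 genes was −0.22, −0.22 and −0.24 on the log2 scale. WT replicate 4 also had 9 of the 10 genes below the WT mean, with a median deviation of −0.05.

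Levels were divided by the length of the longest transcript (CPM per kilobase) to compare the genes with each other. In WT the order ran from *Igfbp3* (415 ± 16.7) and *Igfbp1* (410 ± 11.5), which did not differ beyond their spread, to *Igfbp4* (126 ± 6.30), *Ghr* (63.5 ± 3.09) and *Igf1* (35.6 ± 1.02). *Stat5b* (17.3 ± 0.834), *Igfals* (17.1 ± 1.29) and *Socs2* (16.1 ± 0.881) followed, and these 3 did not differ beyond their spread. *Stat5a* (7.66 ± 0.714) and *Igfbp2* (5.50 ± 0.972) came last. In WDR6-WKO hepatocytes *Igfbp3*, at 334 ± 8.54 CPM per kilobase, stood above *Igfbp1*, at 267 ± 6.40. The last places changed too, with *Igfbp2* at 7.75 ± 0.642 above *Stat5a* at 6.57 ± 0.199 CPM per kilobase. These orders depend on the length taken for each gene, an uncertainty that the spread between libraries does not measure. In CPM *Igfbp3* was above *Igfbp1*, and *Stat5a* above *Igfbp2*, in both genotypes.

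The makeup of the binding protein transcripts was compared on the same scale. The summed level of *Igfbp1*, *Igfbp2*, *Igfbp3* and *Igfbp4* was 956 ± 24.7 CPM per kilobase in WT and 715 ± 1.51 in WDR6-WKO, so that the mean fell by 25.2% (exact permutation test, two-sided, p = 0.0286). *Igfbp1* made up 42.8, 43.1, 41.7 and 43.8% of this sum in WT and 37.2, 36.5 and 38.1% in WDR6-WKO. The share of *Igfbp1* did not overlap between genotypes (exact permutation p = 0.0286, 0.0571 after Benjamini-Hochberg adjustment over 4 shares).

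The share of *Igfbp3* was 43.4 ± 1.14% in WT and 46.6 ± 1.11% in WDR6-WKO, without overlap (exact permutation p = 0.0571, adjusted 0.0762). *Igfbp2* held 0.574 ± 0.0906% in WT and 1.08 ± 0.0917% in WDR6-WKO (exact permutation p = 0.0286, adjusted 0.0571). *Igfbp4* held 13.2 ± 0.583% in WT and 14.99 ± 1.73% in WDR6-WKO, and WDR6-WKO replicate 3, at 13.0%, was within the WT range (exact permutation p = 0.143). None of the 4 shares reached an adjusted p of 0.05, which with 35 ways of drawing the groups and 4 shares needs at least 3 of them to be at the smallest p. Shares add up to 100%, so that a fall of one raises the others.

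**Figure D3:**
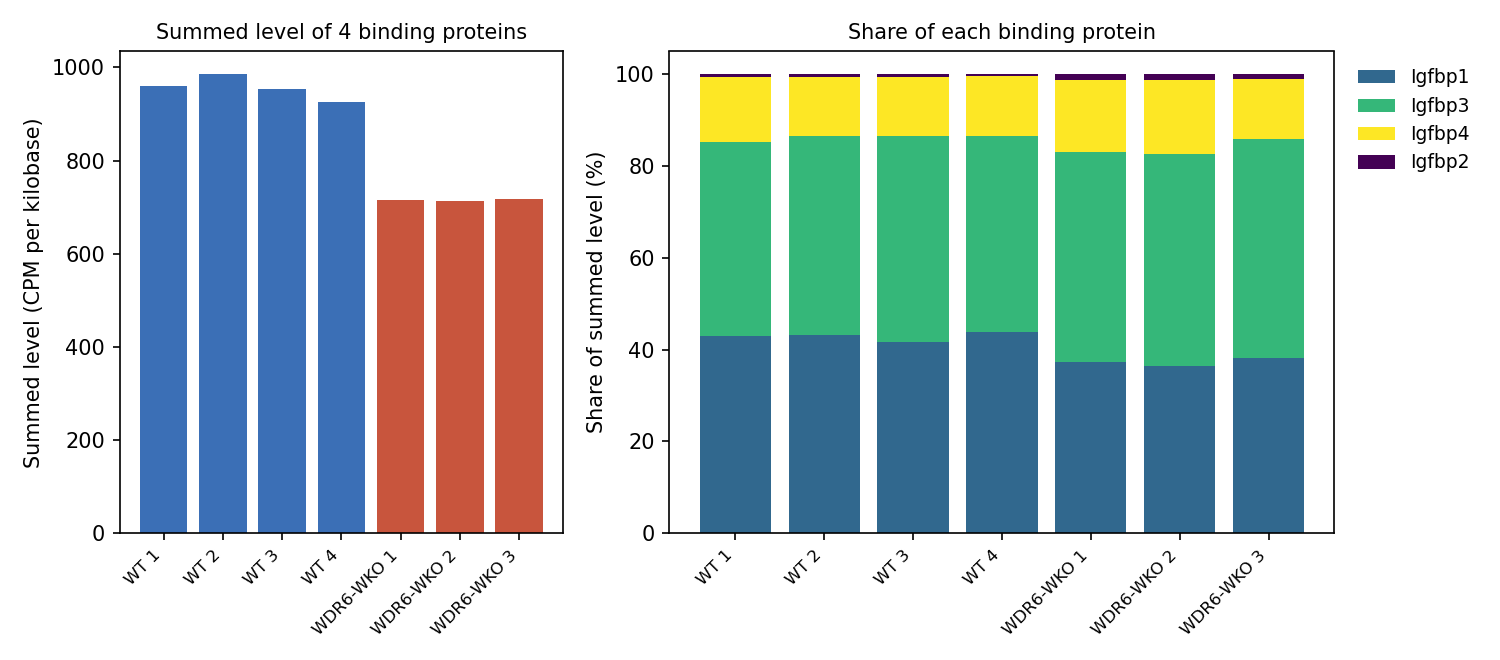
Left, summed level of *Igfbp1*, *Igfbp2*, *Igfbp3* and *Igfbp4* in CPM per kilobase (vertical axis) in each library; right, share of each gene in that sum in percent. The WT libraries lie between 925 and 985 and the WDR6-WKO libraries between 714 and 717 CPM per kilobase, with a smaller share of *Igfbp1* in WDR6-WKO.

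The partners of the circulating complex were set against *Igf1* within each library. The log2 ratio of *Igfals* to *Igf1* per length was −1.06 ± 0.147 in WT and −1.15 ± 0.159 in WDR6-WKO, with overlapping ranges (exact permutation p = 0.486). The difference of that ratio was −0.09 over all libraries and 0.00020 without WDR6-WKO replicate 3. The log2 ratio of *Igfbp3* to *Igf1* was 3.54 ± 0.0499 in WT and 3.43 ± 0.00863 in WDR6-WKO, without overlap (exact permutation p = 0.0571, adjusted 0.114 over 2 ratios).

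Other genes that transmit or dampen growth hormone receptor signals were taken as a list of 23, all of them tested. Of these 2 were higher, 3 were lower and 18 did not pass, with a median log2 fold change of 0.06. Over all genes tested 12.8% passed, the share to set beside this list and those that follow. *Jak2*, the kinase bound to the receptor, was lower, at 101 ± 4.20 CPM in WT and 83.0 ± 5.92 CPM in WDR6-WKO (log2 fold change −0.29, edgeR adjusted p = 0.00458). *Prlr*, the related receptor for prolactin, fell from 2.32 ± 0.0982 to 1.30 ± 0.189 CPM (log2 fold change −0.84, edgeR adjusted p = 0.0165).

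*Grb10*, an adaptor that dampens insulin and IGF1 receptor signals, rose from 18.4 ± 1.53 to 28.5 ± 4.06 CPM (log2 fold change 0.63, edgeR adjusted p = 0.000661). The list had 3 genes past the test without WDR6-WKO replicate 1 and 10 without WDR6-WKO replicate 3, compared with 5 over all libraries, and 2150 higher and 2083 lower genes passed in the whole table without replicate 3, compared with 983 and 914.

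On the receiving side of IGF1, 12 of 19 listed receptors, substrates, further binding proteins and proteases were tested, with 2 higher, 1 lower and 9 not past the test. *Igf1r*, the IGF1 receptor, was at 9.50 ± 0.105 CPM in WT and 10.2 ± 1.42 CPM in WDR6-WKO (edgeR adjusted p = 0.645), and *Igf2r*, which clears IGF2, differed by −0.02 (edgeR adjusted p = 0.843). *Igfbp7*, which encodes a low-affinity relative of the binding proteins, rose from 52.3 ± 1.87 to 63.8 ± 3.12 CPM (log2 fold change 0.29, edgeR adjusted p = 0.00423). *Irs2*, a substrate of the insulin and IGF1 receptors, fell by 0.31 on the log2 scale (edgeR adjusted p = 0.00691).

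*Stc2*, an inhibitor of the protease that releases IGFs from IGFBP4, had 12, 2, 0 and 0 reads in WT and 17, 36 and 27 reads in WDR6-WKO (edgeR adjusted p = 0.0301). It did not pass without WDR6-WKO replicate 3 (edgeR adjusted p = 0.0650). The list had 1 higher gene in place of 2 under DESeq2, with at least 10 counts required in every library, and with a replicate block. It also had 1 without WT replicate 2, 3 or 4 or without WDR6-WKO replicate 2. *Igfbp6* had 6, 5, 6 and 10 reads in WT and 24, 28 and 4 in WDR6-WKO and was too low to be tested. *Igf2*, *Igfbp5* and *Fgf21* were not found among the gene symbols of the read counts and so were not tested.

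Genes that growth hormone pulses set at different levels in male and female liver were followed as well. Of 20 male-biased genes 17 were tested, and 2 were higher, 6 lower and 9 not past the test (median log2 fold change −0.07). The share that passed over all genes tested was 12.8%. *Mup7*, a major urinary protein gene, fell from 709 ± 48.3 to 420 ± 20.7 CPM (log2 fold change −0.75, edgeR adjusted p = 5.60e-07), while its relative *Mup21* rose from 6.74 ± 0.720 to 12.5 ± 1.05 CPM. Some *Mup* genes are near-identical copies. Sequence shared between *Mup7* and *Mup21* was not measured here, so how far the split of reads is uncertain for them is not known. *Selenbp2*, a selenium-binding protein gene, fell by 1.39 and *Susd4*, a complement regulator gene, by 1.20 on the log2 scale.

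Of 22 female-biased genes only 6 were tested, with 1 higher, 2 lower and 3 not past the test. *Trim24*, a nuclear receptor cofactor, fell by 0.38 on the log2 scale, *Abcd2*, a peroxisomal fatty acid transporter, rose by 0.60, and *Cyp2c40*, a cytochrome P450 gene, was lower. *Cyp2c40* had 19, 17, 17 and 21 reads in WT and 4, 1 and 13 in WDR6-WKO, where replicate 3 was the highest. Its log2 fold change was −1.70 over all libraries (edgeR adjusted p = 0.0422) and −3.04 without replicate 3 (edgeR adjusted p = 0.000121). This list had 1 gene past the test without WT replicate 4 and also 1 without WDR6-WKO replicate 1.

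Among regulators known to act on *Igf1* or *Igfbp1* transcription, 17 of 18 were tested, with 1 higher, 4 lower and 12 not past the test. *Atf4*, the factor of the amino acid and stress response, rose from 184 ± 8.68 to 284 ± 23.0 CPM (log2 fold change 0.62, edgeR adjusted p = 3.25e-06). *Onecut1*, a liver-enriched factor, fell from 4.73 ± 0.499 to 2.07 ± 0.410 CPM. *Hnf4a*, *Foxa1* and *Foxo1*, all factors of hepatocyte gene expression, fell by 0.27, 0.28 and 0.26 on the log2 scale. Their edgeR adjusted p-values were 0.00502, 0.00770 and 0.0419. The ranges of *Foxo1* overlapped, at 60.7 to 71.9 CPM in WT and 48.6 to 61.3 CPM in WDR6-WKO. *Hnf4a* is also one of the 10 hepatocyte markers.

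Of 15 listed FOXO1 targets 14 were tested, and 4 were lower, 1 was higher and 9 did not pass, with a median log2 fold change of −0.01. *Mttp*, which loads lipid onto lipoproteins, fell from 289 ± 5.50 to 235 ± 9.72 CPM, and *Sesn3*, a stress-induced regulator of growth signalling, fell by 0.34 on the log2 scale. *Irs2* and *Pck1*, the enzyme of gluconeogenesis, were lower as well, with *Pck1* at only 1.47 CPM in WT. *Angptl4*, an inhibitor of lipoprotein lipase, rose by 0.26 on the log2 scale.

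**Figure D4:**
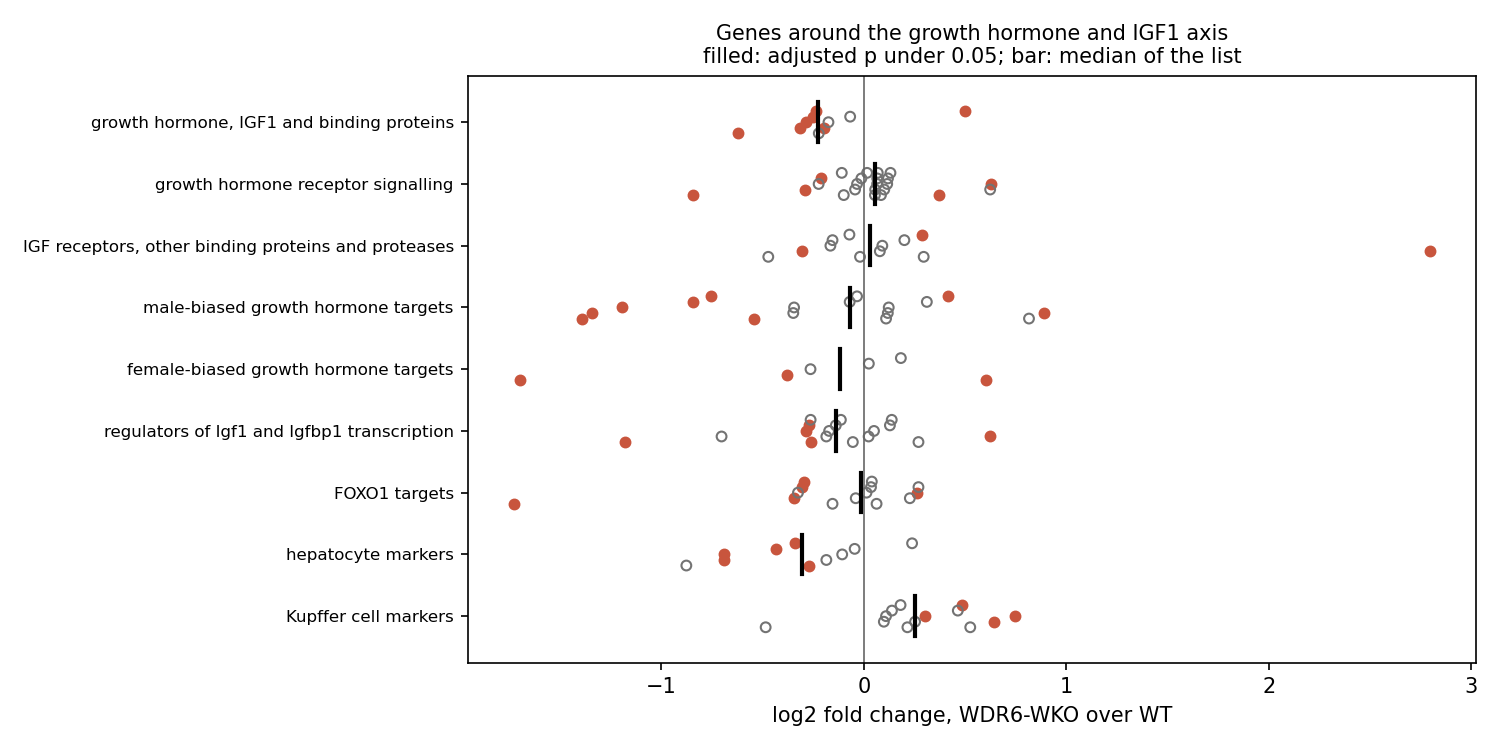
log2 fold change in WDR6-WKO over WT hepatocytes (horizontal axis) of each tested gene of the lists around the growth hormone and IGF1 axis; each point is a gene, filled points passed an edgeR adjusted p of 0.05, and bars are list medians. The 10 genes described here have a median of −0.23, the hepatocyte markers have one of −0.30, and the growth hormone receptor signalling list has a median of 0.06.

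Markers of other liver cells were measured in the same libraries. Of 13 Kupffer cell markers 4 were higher (*Lyz2*, *C1qc*, *Fcgr1* and *C1qb*), none was lower, and 12 had a positive log2 fold change, with a median of 0.25. *Timd4* had a negative one, −0.48 (edgeR adjusted p = 0.0880), and the ranges of *C1qb* overlapped between genotypes. The summed level of the 13 markers was 864 to 944 CPM in WT and 1000 to 1199 CPM in WDR6-WKO, lowest there in replicate 3. Endothelial markers summed to 491 to 555 CPM in WT and 479 to 547 CPM in WDR6-WKO, with 1 of 12 (*Tek*) lower and none higher.

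Stellate cell markers summed to 853 to 887 CPM in WT and 845 to 907 CPM in WDR6-WKO, with *Acta2* and *Dcn* higher and *Rgs5* and *Ecm1* lower among 12. *Dcn* did not pass without WDR6-WKO replicate 3 (edgeR adjusted p = 0.0547). Of 7 cholangiocyte markers tested *Spp1* and *Sox9* were higher and *Tspan8* was lower. Of 15 genes listed for dedifferentiation in culture *Anxa1* was higher. The keratin genes *Krt8* and *Krt18*, which are not particular to dedifferentiated cells, were lower. The part of these cell types in the levels of the 10 genes, *Igfbp3* included, was not tested.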

How the data were processed

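RNA from primary hepatocytes of male WT (n = 4) and WDR6-WKO (n = 3) mice was sequenced by the authors (NEBNext Ultra kit, HiSeq). Reads were aligned with Bowtie2 2.2.3 to GRCm38, per the submitters' processing notes, and the authors deposited a table of unnormalized read counts per gene symbol. The counting tool, annotation, strand setting and the filter that left out rows with totals under 50 are not given in the sources used here. Of 14819 rows, 21 hold dates in place of symbols and were tested without a name. Samples were grouped by genotype from the labels. They are described as independent experiments, but the labels do not tie each library to a mouse, so that p-values measure the spread between these libraries.

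Fold changes (WDR6-WKO over WT) came from edgeR 4.0.16 in R 4.3.3, with TMM scaling, its expression filter and the robust quasi-likelihood test, with Benjamini-Hochberg adjustment over 14779 genes. CPM were TMM-scaled. Single ratios and shares were tested by exact two-sided permutation. Libraries held 17816913 to 23668940 counts, and the common biological coefficient of variation was 7.40%. Lengths and positions came from GENCODE M21 (GRCm38) and promoter sequences from RefSeq (GRCm38.p6). Alternatives were DESeq2 1.42.0, limma-voom 3.58.1, other scalings and filters, a replicate block, the study's thresholds and leaving out each library. The edgeR test across genes was tested on simulated data.

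The 10 genes, the lists and the tests were chosen with earlier results of these data known. Outside the 10 genes and *Wdr6*, up to 4 genes past the test with the smallest p were named per pathway list, all such genes of the marker lists of other cell types, and a fixed set of genes of the axis (*Cish*, *Prlr*, *Jak2*, *Igf1r*, *Igf2r*, *Foxo1* and the further IGF and binding protein genes). A gene that met this rule is not reported here. *Pck1*, *Alb*, *Ttr*, *Tat*, *Serpina1c*, *Timd4* and *Igf1os* fall outside this rule and were named after their values were seen.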

Additional observations from a re-analysis of the deposited data

How the results depend on the processing

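Over 14 alternative fits per gene, all 140 fits of the 10 genes kept their direction, and *Igf1*, *Igfbp1* and *Igfbp3* also stayed past the test in each. With each library left out in turn, log2 fold changes ranged from −0.32 to −0.22 for *Ghr*, −0.29 to −0.19 for *Stat5a*, −0.33 to −0.23 for *Igfals*, 0.39 to 0.58 for *Igfbp2* and −0.29 to −0.15 for *Igfbp4*, and the number of the 10 genes that passed ranged from 5 to 8. The counts past the test ranged from 3 to 10 for growth hormone receptor signalling and from 1 to 3 for female-biased genes, and the difference in the log2 ratio of *Igfals* to *Igf1* ranged from −0.16 to 0.00020. Over all genes, 2150 higher and 2083 lower ones passed without WDR6-WKO replicate 3, and 570 to 740 higher and 462 to 661 lower genes without any other single library. With library sizes alone *Igfbp4* stood at −0.21 and did not pass (edgeR adjusted p = 0.0661, against 0.00648 to 0.0952 over all its alternatives), and the whole table gave 1212 higher and 696 lower genes in place of 983 and 914.

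Samples with the same replicate number came from different mice, and their deviations from the group means correlated by only 0.0311, 0.0207 and 0.0355, so that the numbers were not taken to pair them, and not every library correlated best with its own number. A replicate block gave 945 higher and 817 lower genes, moved *Stat5a* to −0.29, past the test (edgeR adjusted p = 0.0313, against 0.0272 to 0.237 over its alternatives), and moved *Igfbp2* to 0.38, not past it (edgeR adjusted p = 0.0530, against 0.00277 to 0.110). It changed no other call among the 10 genes.

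Under the study's thresholds 2 of the 10 genes passed, because *Ghr* (−0.25), *Igf1* (−0.20), *Igfals* (−0.29), *Igfbp3* (−0.32) and *Igfbp4* (−0.23) are below its fold minimum, and 1 of the IGF receptor list, 3 of the regulators and 1 of the FOXO1 targets passed. Without division by length the differences in share were −4.62, 0.281 and 2.02 percentage points for *Igfbp1*, *Igfbp2* and *Igfbp3*. Relative to the hepatocyte markers, the scaling chosen after seeing the data, the differences were 0.038 for *Ghr*, 0.075 for *Stat5a*, 0.23 for *Stat5b*, 0.11 for *Socs2*, 0.094 for *Igf1*, 0.0022 for *Igfals*, −0.33 for *Igfbp1*, −0.023 for *Igfbp3*, 0.052 for *Igfbp4* and −3.92 for *Wdr6*, which stood at −4.20 relative to all transcripts. Few reads limited the precision of *Igfbp2*, *Stc2*, *Igfbp6* and *Cyp2c40*.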
